A study of Mus musculus with 8 samples.

Results

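The serine and arginine rich splicing factors Srsf1, Srsf2, Srsf3, Srsf4, Srsf5, Srsf6, Srsf7, Srsf9, Srsf10 and Srsf11 were followed by gene symbol through the transcriptomes of mouse muscle stem cells. All 10 symbols were present among the 24328 of the deposited table, and all 10 passed the filter on low values, 1 FPKM in at least 2 libraries (FPKM, a fragment count divided by transcript length and by library size). The 8 libraries formed 4 groups of 2, all from C57BL/6 mice aged 2 months. PFA-perfused mice carried the Pax7-nGFP reporter and were perfused with the fixative paraformaldehyde before the muscle was digested. PBS-perfused mice carried the same reporter and were perfused with buffer. Unperfused mice were wild type, and injury-activated cells came from unperfused wild type mice 2.5 days after injury; the kind of injury is not given in the sources used here. The sort took Vcam-positive cells and left out those with CD31, CD45 or Sca-1. Fixed and unfixed cells had their RNA purified with different kits. Nothing in the labels tells separate mice from pools or repeats of 1 preparation, so a p-value here covers the spread between libraries alone, and that spread may be technical.

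SR proteins bind short enhancer elements in exons through an RNA recognition motif, and their tail of alternating serine and arginine contacts the U1 snRNP and U2AF at the neighbouring splice sites. SRPK kinases phosphorylate that tail in the cytoplasm for nuclear import by Tnpo3, and CLK kinases in the nucleus release the proteins from speckles. Many members regulate their own level by splicing in a poison exon that sends the transcript to nonsense-mediated decay. A value per gene symbol does not separate such isoforms from the coding ones. In resting muscle stem cells, splicing and intron removal are studied as a layer of control over the exit from quiescence.

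FPKM summed to between 461454 and 582336 per library, and without read counts the depth behind a value is unknown. Rn45s, the ribosomal RNA precursor, took 9.80 and 19.4% of the sum in fixed cells (PFA-perfused) and between 0.0266 and 6.64% in the other 6. Sdc4, a surface proteoglycan, took 5.84 and 8.74% in the unperfused libraries and at most 0.559% elsewhere. Shares of this size shift the values of all other genes, so each comparison is also given after trimmed mean scaling, which brings the typical gene to the same level in every library. A difference was called where the two-sided p of limma, a linear model fitted to all genes, was under 0.05 after Benjamini-Hochberg adjustment over 12515 genes. All 8 satellite cell markers reached 1 FPKM in both libraries of every group, except Calcr in injury-activated cells (0.682 and 0.548). Pax7 lay between 4.40 and 567 FPKM. Its means were 448 after PFA perfusion, 63.9 after PBS perfusion, 20.1 in unperfused and 4.50 in injury-activated cells. Chodl (988, 447, 134 and 5.49), Calcr (70.2, 48.6, 23.5 and 0.615) and Cdh15 (172, 47.9, 42.7 and 38.2) fell in that order. Myf5, Itga7, Sdc4 and Vcam1 did not. Vcam1 (106, 359, 120 and 237) lay between 84.3 and 390 FPKM (389.6 in PBS-perfused replicate 2). Endothelial markers summed to 134 to 213 FPKM in PBS-perfused libraries, with all 8 at 1 FPKM or more, against 60.5 to 62.4 in PFA-perfused, 25.4 to 39.7 in unperfused and 7.72 to 8.44 in injury-activated libraries. Tek made up much of the lower sums, with means of 48.7 in PFA-perfused, 47.9 in PBS-perfused and 27.2 in unperfused cells. Pecam1, Cdh5, Kdr, Cldn5, Esam, Emcn and Egfl7 were each highest in PBS-perfused cells, with Cldn5 at 59.9 against 2.97 and Pecam1 at 26.8 against 2.19 in PFA-perfused cells. Haematopoietic markers summed to 6.86 to 6.91, 38.7 to 43.1, 25.9 to 37.0 and 59.7 to 66.4 FPKM from PFA-perfused to injury-activated libraries. Of these, Itgam was listed at 0 in both PFA-perfused and Adgre1 in both unperfused libraries, and Ptprc, which encodes CD45, stayed at or below 0.250 FPKM. Other haematopoietic markers were higher. Lyz2 was at 42.9 and 44.0 FPKM in injury-activated against 0.390 and 0.320 in unperfused libraries, and Adgre1 at 1.67 and 2.00 in injury-activated ones. Cd74 was at 23.1 and 12.7 in PBS-perfused and Cd68 at 32.1 and 23.0 in unperfused libraries. Fibro-adipogenic markers summed to 458 to 832, 318 to 470.2, 507 to 536 and 77.9 to 90.0 FPKM, again from PFA-perfused to injury-activated libraries. Dpt alone averaged 476, 165, 465 and 5.71, and Cd34 154, 57.3, 33.1 and 14.3. By contrast, Pdgfra (0.157, 1.99, 0.525 and 5.95), Ly6a (3.14, 18.5, 0.611 and 7.99), Dcn (4.07, 46.7, 4.84 and 28.3) and Lum (0.494, 9.29, 1.64 and 10.1) were higher in PBS-perfused and injury-activated cells. Col1a1 and Lox were highest in PBS-perfused cells. The part of these other cells in the results was not tested, and in bulk libraries fewer cells of a type and less RNA per cell cannot be told apart.

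Promoters are shown for the member that differed most between groups (Srsf2), the member that was highest after injury (Srsf3) and the member that was called in all 6 comparisons (Srsf6). Each sequence holds the 250 bases before the RefSeq transcription start on GRCm38.p6, 5′ to 3′ on the strand of the gene, with a CCAAT box (CCAAT or its complement ATTGG) in capitals.
Srsf2 (chr11:116853095-116853344, minus strand): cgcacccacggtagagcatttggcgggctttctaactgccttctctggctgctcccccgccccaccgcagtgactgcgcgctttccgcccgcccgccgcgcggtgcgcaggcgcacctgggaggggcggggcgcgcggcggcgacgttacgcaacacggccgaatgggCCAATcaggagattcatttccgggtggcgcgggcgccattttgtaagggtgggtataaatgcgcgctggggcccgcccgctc
Srsf3 (chr17:29032410-29032659, plus strand): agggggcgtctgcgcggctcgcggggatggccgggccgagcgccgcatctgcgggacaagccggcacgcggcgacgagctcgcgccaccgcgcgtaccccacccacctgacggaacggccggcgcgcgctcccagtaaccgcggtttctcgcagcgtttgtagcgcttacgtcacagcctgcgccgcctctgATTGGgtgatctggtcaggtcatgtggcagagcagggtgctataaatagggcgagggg
Srsf6 (chr2:162931258-162931507, plus strand): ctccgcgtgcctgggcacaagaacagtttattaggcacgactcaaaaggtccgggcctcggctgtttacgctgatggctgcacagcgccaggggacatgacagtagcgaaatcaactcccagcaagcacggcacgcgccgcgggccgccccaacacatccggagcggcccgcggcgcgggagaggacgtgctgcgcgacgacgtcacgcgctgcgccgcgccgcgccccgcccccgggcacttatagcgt
All 10 members matched a RefSeq window. CCAAT stood on either strand in 3 of the 10 windows (Srsf2, Srsf3 and Srsf10) and in 33.85% of all 32851 windows. It began 82 bases before the start in Srsf2, 58 in Srsf3 on the other strand and 129 in Srsf10. The letters of AP-1 (TGANTCA), CRE (TGACGTCA), the E-box (CACGTG), the heat shock element (GAA, TTC and GAA, each 2 bases apart) and E2F (TTTGGCGC) were in none of the 10 windows on either strand, and in 6.75, 1.55, 6.02, 0.47 and 0.42% of all windows. Only these letters were searched, so other forms of a site, of E2F among them, may be present in the windows. The 10 windows held 17 to 37 CpG dinucleotides and 56.8 to 77.2% G and C, beside medians of 6 and 52.0% over the windows of 27025 genes.

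The leading SR factor differed between groups. The 10 members together stood at 1215 and 998 FPKM after PFA perfusion, 1837 and 1708 after PBS perfusion, 2076 and 2555 in unperfused and 855 and 789 in injury-activated libraries. Because FPKM is scaled to length, members can be set against each other within a library, and their shares of the family sum do not depend on the scaling between libraries. Srsf6 made up 21.8 and 22.0% of the sum in PFA-perfused and 21.5 and 20.0% in PBS-perfused libraries, but 3.91 and 2.64% in unperfused and 3.10 and 3.31% in injury-activated ones. Srsf2 made up 46.6 and 62.3% in the unperfused libraries and at most 12.4% in the other 6. Srsf3 made up 43.4 and 42.5% in injury-activated libraries and between 9.61 and 14.8% in the other 6. The leading transcript was therefore Srsf2 in unperfused and Srsf3 in injury-activated cells, with no overlap between libraries. Srsf6 led in both PFA-perfused libraries and in PBS-perfused replicate 2, and Srsf5 (22.1%) led in PBS-perfused replicate 1.

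**Figure D1:**
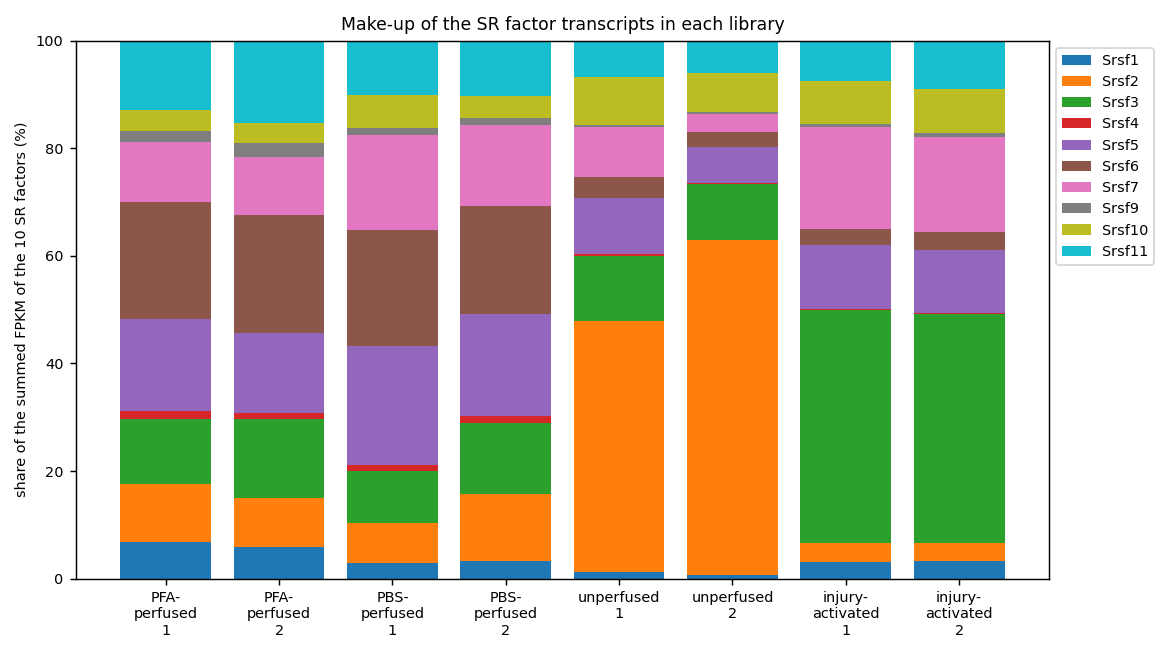
Share of each SR factor in the summed FPKM of the 10 members (percent, stacked bars from 0 to 100), 1 bar per library in 4 groups of 2. Srsf2 takes 46.6 and 62.3% in the unperfused bars and Srsf3 43.4 and 42.5% in the injury-activated bars, while Srsf6 takes 20.0 to 22.0% in the 4 bars of perfused mice.

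Among the members with a single RNA recognition motif, Srsf2, also known as SC35 and a marker of nuclear speckles, had the widest range. Its level was 131 and 89.4 FPKM after PFA perfusion, 139 and 212 after PBS perfusion, 967 and 1592 in unperfused and 29.1 and 27.4 in injury-activated libraries. Both unperfused libraries lay above all others and both injury-activated libraries below, and the highest group mean was 45.3 times the lowest. PBS-perfused and PFA-perfused cells, neighbours in this order, did not differ in the test (limma adjusted p = 0.112). After trimmed mean scaling Srsf2 was called higher in PBS-perfused than in PFA-perfused cells (log2 fold change 1.29). In GENCODE M21 the exons of Srsf2 overlap those of Mettl23 (460 bases) and Mfsd11 (288 bases) on the opposite strand, and no use of strand is stated, so reads in the overlap cannot be told apart. Mettl23 itself was at 33.2 and 52.4 FPKM in unperfused and at most 21.7 in the other 6 libraries, and Mfsd11 at 8.81 and 4.64 in unperfused and 40.9 and 33.1 in injury-activated libraries.

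Srsf3, the smallest member and an adaptor for mRNA export, followed another order. It stood at 147 and 148 FPKM after PFA perfusion, 177 and 227 after PBS perfusion, 253 and 264 in unperfused and 371 and 336 in injury-activated libraries. The 4 groups did not overlap, yet no step between neighbouring groups passed the test (limma adjusted p = 0.141, 0.236 and 0.127 from the lowest step to the highest), while 3 of the wider comparisons did. After trimmed mean scaling the steps to PBS-perfused (log2 fold change 1.07) and to unperfused cells (0.93) were called. The step to injury-activated cells was not (0.04). Srsf7, a close relative of Srsf3 with an added zinc knuckle, was at 135 and 106 FPKM after PFA perfusion, 325 and 256 after PBS perfusion, 191 and 88.2 in unperfused and 161 and 139.7 in injury-activated libraries. Both PBS-perfused libraries of Srsf7 lay above all others, and the 2 unperfused libraries spanned the values of both other groups. Neighbours among those lower groups did not differ beyond their spread (limma adjusted p = 0.634 for injury-activated and 0.792 for PFA-perfused cells, each against unperfused). After trimmed mean scaling Srsf7 was called higher in unperfused (log2 fold change 1.31) and injury-activated (1.11) than in PFA-perfused cells.

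Members with a pair of RNA recognition motifs were mostly higher in perfused mice. Srsf6 was at 264 and 219 FPKM after PFA perfusion, 395 and 342 after PBS perfusion, 81.1 and 67.4 in unperfused and 26.5 and 26.1 in injury-activated libraries. Srsf4, which has the longest serine and arginine tail of the group, kept the same order at a lower level, with 17.2 and 11.9, 20.7 and 22.5, 4.94 and 2.94, and 1.42 and 1.15 FPKM. For both genes no group overlapped another, and the highest group mean was 14.0 times (Srsf6) and 16.8 times (Srsf4) the lowest. The step from PFA-perfused to PBS-perfused cells was not called for Srsf4 (limma adjusted p = 0.0866). It was called after trimmed mean scaling (log2 fold change 1.14). In GENCODE M21 the exons of Srsf4 overlap 1532 bases of Gm12992 on the opposite strand, which was at 5.96 and 10.2 FPKM in PFA-perfused and at or below 0.0620 in injury-activated libraries.

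Srsf1, also called SF2/ASF and known for directing the choice of 5′ splice sites, stood at 82.9 and 59.3 FPKM after PFA perfusion, 52.7 and 56.1 after PBS perfusion, 25.4 and 18.7 in unperfused and 27.0 and 25.5 in injury-activated libraries. Srsf9, a small relative of Srsf1, was at 24.5 and 25.9, 24.9 and 22.3, 7.09 and 6.51, and 5.89 and 6.39 FPKM in that order. On unscaled FPKM both genes thus fell into a higher pair, the perfused groups, and a lower pair, the unperfused and injury-activated groups. Within the pairs neither gene was called (limma adjusted p = 0.218 and 0.371 for Srsf1, 0.694 and 0.566 for Srsf9, for the higher and the lower pair). After trimmed mean scaling Srsf9 was called within both pairs. It was then higher in PBS-perfused than in PFA-perfused cells (log2 fold change 0.52) and lower in injury-activated than in unperfused cells (-0.49). Srsf5, first described as a gene induced in growing liver, differed from this pattern, with 209 and 148 FPKM after PFA perfusion, 406 and 324 after PBS perfusion, 219 and 175 in unperfused and 101 and 92.3 in injury-activated libraries. PFA-perfused and unperfused libraries of Srsf5 overlapped (limma adjusted p = 0.622), and the PBS-perfused libraries lay above and the injury-activated below them. This order depended on the scaling. After trimmed mean scaling Srsf5 was called higher in unperfused than in PFA-perfused cells (1.35). It was then not called in unperfused against PBS-perfused (-0.32) or injury-activated against PFA-perfused cells (-0.06).

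Srsf10 and Srsf11 are less typical members. Srsf10, which loses phosphate on heat shock and in mitosis and then acts as a splicing repressor, was at 47.6 and 37.4 FPKM after PFA perfusion, 113 and 72.0 after PBS perfusion, 186 and 186 in unperfused and 67.7 and 64.7 in injury-activated libraries. On unscaled FPKM it was, with Srsf2, 1 of 2 members whose highest level was in unperfused cells, and its lowest level was in fixed cells. Srsf11, known for promoting very short exons in neurons, was at 156 and 153, 185 and 175, 140.2 and 155, and 64.1 and 70.5 FPKM. Its 3 groups without injury did not differ in the test on unscaled FPKM (lowest limma adjusted p = 0.292), and both injury-activated libraries lay below them. After trimmed mean scaling Srsf11 was called higher in PBS-perfused (log2 fold change 0.85) and unperfused (1.13) than in PFA-perfused cells. Its difference between injury-activated and PFA-perfused cells was then not called (-0.40). Over the 10 members the highest group mean was in PBS-perfused cells for 5, in PFA-perfused cells for 2, in unperfused cells for 2 and in injury-activated cells for 1. The lowest was in injury-activated cells for 6, in PFA-perfused cells for 3 and in unperfused cells for 1. These orders rest on unscaled FPKM and were not counted over all genes. After trimmed mean scaling Srsf1 (0.27, not called) and Srsf9 (0.52, called) were higher in PBS-perfused than in PFA-perfused cells. Srsf11 was then higher in unperfused than in PBS-perfused cells (0.28, not called). Srsf1 was then lower in injury-activated than in unperfused cells (-0.14, not called).

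**Figure D2:**
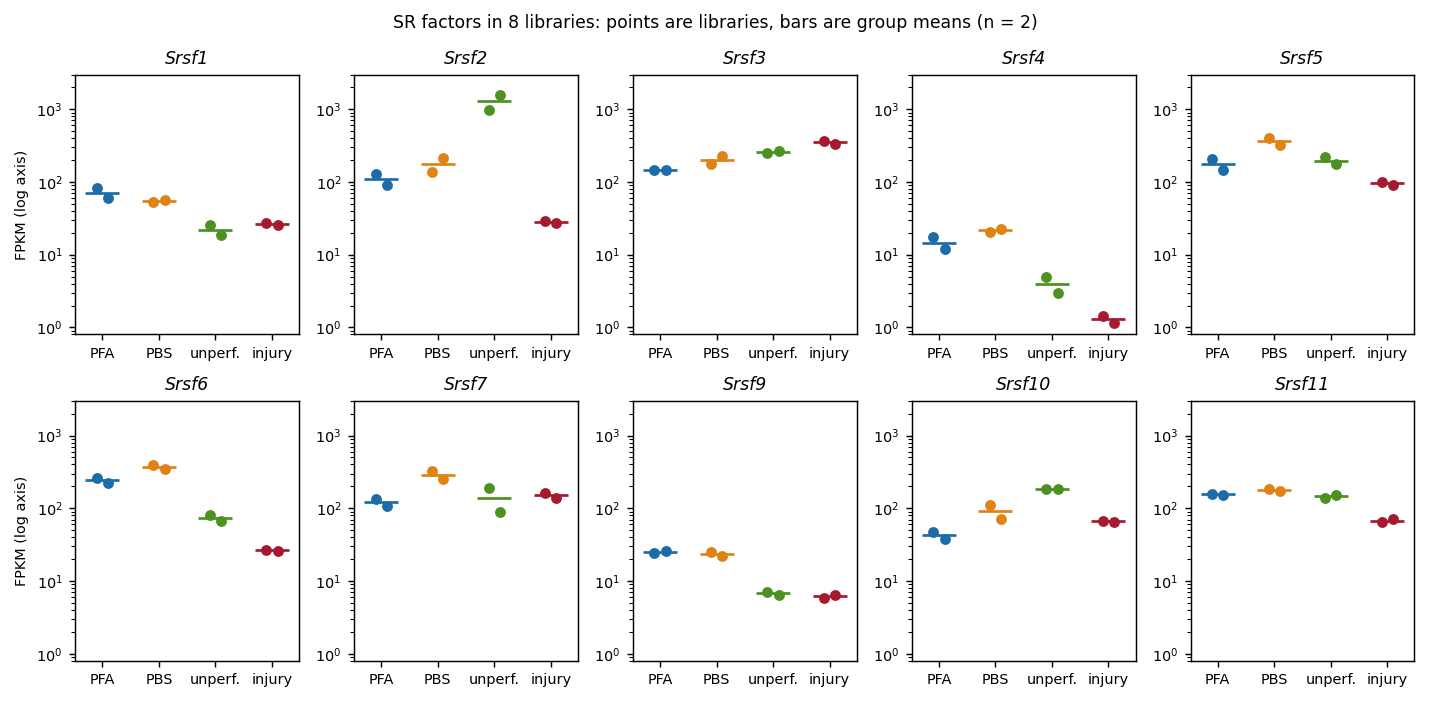
Level of each SR factor in FPKM on a log axis in the 8 libraries (points), with group means (bars, n = 2) for the 4 groups (unperf., unperfused; injury, injury-activated). Srsf2 peaks at 967 and 1592 in unperfused cells, and Srsf4 and Srsf6 fall from perfused to injury-activated cells. Srsf3 is highest in injury-activated cells, at 371 and 336, but was not called there against unperfused cells.

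PBS-perfused cells were compared with PFA-perfused cells of the same genotype, which sets cells digested alive against cells fixed in place. SR factors were higher or not called, and none was lower. Srsf7 rose by 1.26 ± 0.36 (SE, log2 difference of FPKM + 1; limma adjusted p = 0.0133), Srsf10 by 1.07 ± 0.26, Srsf5 by 1.04 ± 0.27 and Srsf6 by 0.61 ± 0.23 (adjusted p = 0.0429). Of 10 members 4 rose, where limma called 17.8% of 12515 genes higher and 46.2% lower. The count of 0 lower members was also 0 at an unadjusted p under 0.05. The median log2 fold change of the members was 0.58, against -0.50 over all genes tested. After trimmed mean scaling 9 of 10 members were called higher (median 1.19, against -0.01 over all genes), where 28.9% of genes were called higher and 25.6% lower; Srsf1 was the exception (-0.36 before and 0.27 after scaling), and Srsf9 went from -0.09 to 0.52. Endothelial markers summed to 134 to 213 FPKM in PBS-perfused and 60.5 to 62.4 in PFA-perfused libraries, and their part in these rises was not tested. Tek alone was at 46.5 and 50.9 FPKM in the PFA-perfused libraries, so the other endothelial markers differed by more than the sums do. Fixation and RNA kit differed together between these groups and cannot be told apart. Without PFA-perfused replicate 2 none of the 4 calls held, and the fold changes of Srsf7, Srsf10, Srsf5 and Srsf6 were 1.08, 0.91, 0.79 and 0.47. Without PBS-perfused replicate 1 the calls of Srsf7 and Srsf6 were lost (1.09 and 0.50), and that of Srsf6 also after quantile normalization (0.37), without PFA-perfused replicate 1 (0.74) and when either injury-activated library was omitted (0.61).

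Unperfused cells differed from PFA-perfused cells in both directions. Srsf2 rose by 3.51 ± 0.33 (limma adjusted p = 1.68e-05), Srsf10 by 2.12 ± 0.26 and Srsf3 by 0.81 ± 0.24, while Srsf9, Srsf6, Srsf4 and Srsf1 fell by 1.75 ± 0.19, 1.69 ± 0.23, 1.67 ± 0.26 and 1.64 ± 0.24 on the log2 scale. These 3 rises and 4 falls among 10 members stood beside 17.4% of all genes called higher and 56.3% called lower. The member median was 0.02 and that of all genes -0.81. After trimmed mean scaling 6 members were called higher, with Srsf5 (1.35), Srsf7 (1.31) and Srsf11 (1.13, from -0.07) added, and the same 4 were called lower at smaller size (-0.63 for Srsf9 to -0.47 for Srsf1), where 36% of genes were called higher and 31.9% lower. Srsf7 was at 0.11 ± 0.36 without scaling, and at -0.44 when unperfused replicate 1 was omitted and -0.0602 when PFA-perfused replicate 2 was. Srsf5 (0.16 ± 0.27) also changed sign without either of these libraries (-0.0037 and -0.093). The call of Srsf3 was lost without either PFA-perfused library (adjusted p = 0.0634 without replicate 1 and 0.0608 without replicate 2). Fixation, RNA kit, perfusion and genotype differed together in this comparison and cannot be told apart.

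Unperfused and PBS-perfused cells were both unfixed, and their RNA was purified alike, but they differed in perfusion and in the reporter. Here 2 members rose and 6 fell, beside 13.1% of all genes called higher and 36.5% lower. Srsf2 rose by 2.85 ± 0.33 (limma adjusted p = 1.52e-04) and Srsf10 by 1.04 ± 0.26. Srsf6, Srsf4, Srsf9 and Srsf1 fell by 2.30 ± 0.23, 2.22 ± 0.26, 1.66 ± 0.19 and 1.28 ± 0.24 on the log2 scale, and Srsf7 and Srsf5 fell by 1.15 ± 0.36 and 0.88 ± 0.27. The member median was -1.01 and that of all genes -0.36. With trimmed mean scaling Srsf7 (-0.58) and Srsf5 (-0.32) were no longer called and Srsf3 was called higher (0.93), which gave 3 rises and 4 falls where 24.5% of genes were called higher and 22.9% lower. Srsf11 went from -0.29 to 0.28 and was called in neither. The calls of Srsf7 and Srsf5 were also lost without PBS-perfused replicate 1 (-0.98 and -0.72) and without unperfused replicate 2 (-0.59 and -0.73), and that of Srsf5 without either injury-activated library (-0.88, adjusted p = 0.0557 and 0.0559). Endothelial markers moved with these falls, at 134 to 213 FPKM in PBS-perfused and 25.4 to 39.7 in unperfused libraries (Tek alone at 34.0 and 20.4 in the latter), and their part was not tested.

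**Figure D3:**
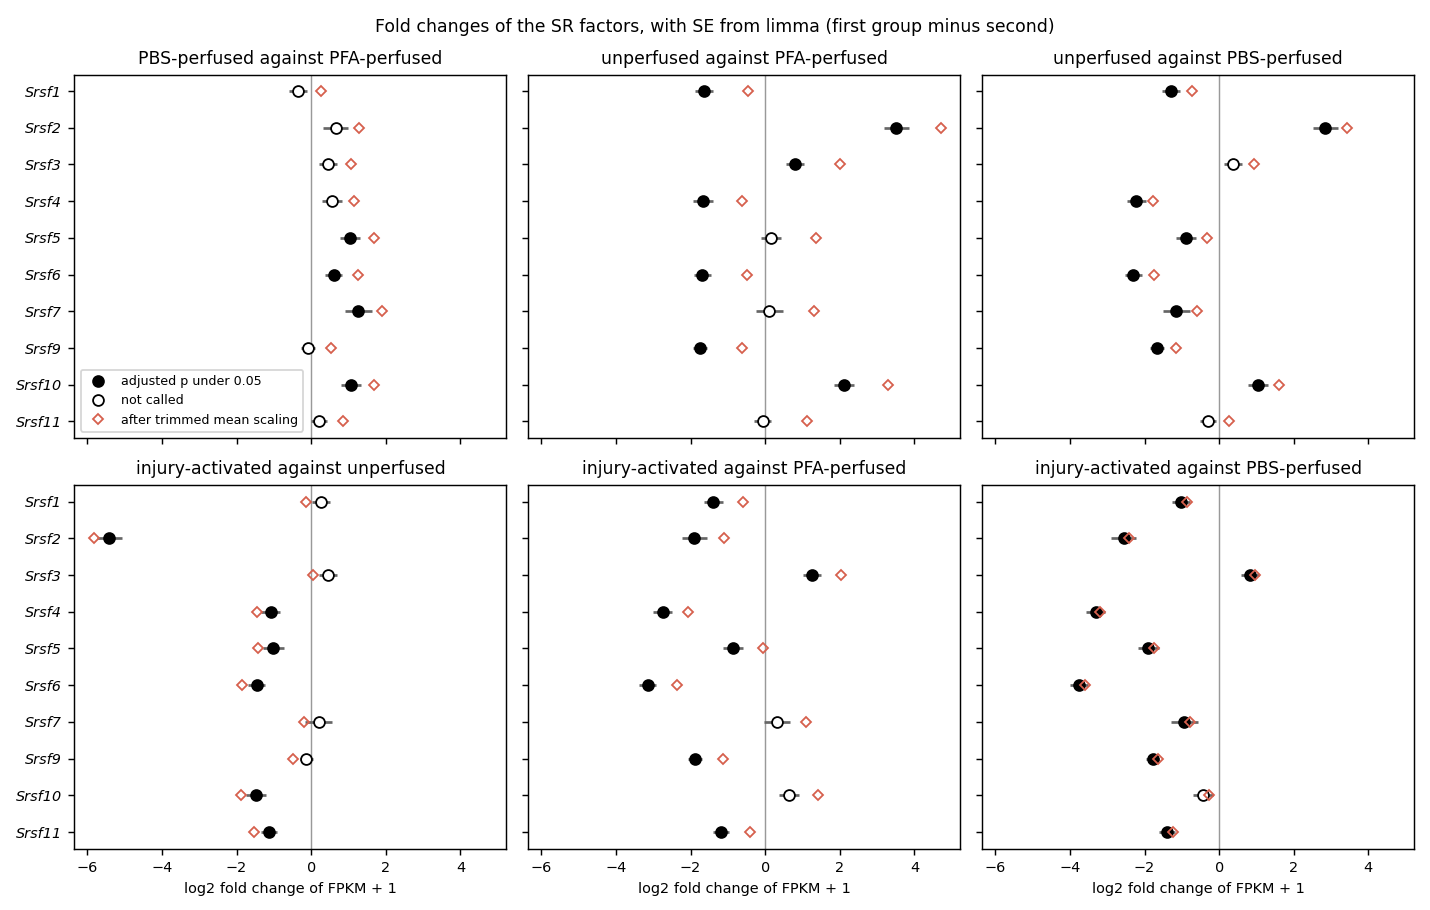
Log2 fold change of FPKM + 1 for the 10 SR factors in 6 comparisons, first group minus second, with SE from limma (filled points: adjusted p under 0.05; open circles: not called; diamonds: after trimmed mean scaling). Srsf2 reaches 3.51 in unperfused against PFA-perfused and -5.41 in injury-activated against unperfused cells, and the diamonds lie right of the points wherever PFA-perfused cells are the second group.

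Injury-activated cells were compared with unperfused cells of the same genotype, handling and RNA kit, which sets activation by injury against uninjured muscle. SR factors fell or were not called. Srsf2 fell by 5.41 ± 0.33 (limma adjusted p = 1.83e-06), from 1280 ± 442 to 28.2 ± 1.22 FPKM (SD, n = 2). Srsf10 and Srsf6 fell by 1.48 ± 0.26 and 1.46 ± 0.23, Srsf11, Srsf4 and Srsf5 by 1.12 ± 0.21, 1.08 ± 0.26 and 1.01 ± 0.27 on the log2 scale. Of 10 members 6 fell, where 29.3% of all genes were called lower and 40.8% higher. None was called higher by limma, and none was higher at an unadjusted p under 0.05. The member median was -1.05, against 0.17 over all genes. Srsf3 (0.45 ± 0.24; 0.04 after trimmed mean scaling), Srsf1 (0.25 ± 0.24; -0.14) and Srsf7 (0.20 ± 0.36; -0.20) were not called, and Srsf9 (-0.13 ± 0.19) was called lower only after trimmed mean scaling (-0.49). That scaling gave 7 falls, with 36.8% of genes called lower and 36.2% higher. Srsf7 was called higher without unperfused replicate 1 (0.76) and was at -0.35 without unperfused replicate 2. The call of Srsf5 was lost without injury-activated replicate 2 (-0.94, adjusted p = 0.0738). From unperfused to injury-activated libraries, marker sums fell for fibro-adipogenic (507 to 536 against 77.9 to 90.0 FPKM), mural (228 to 243 against 81.7 to 97.5) and endothelial cells (25.4 to 39.7 against 7.72 to 8.44). The mural fall lay mostly in Notch3 (means of 77.4 against 4.12) and Des (117 against 40.4), and Rgs5, Myh11, Cspg4 and Kcnj8 also fell. Acta2 (24.1 against 39.6) and Pdgfrb (2.29 against 3.84) rose. The glial sum also fell (432 to 636 against 131 to 140), with Ncam1 alone at 424 and 630 in unperfused libraries. So did the satellite cell sum (29959 to 43344 against 1416 to 1446), with Sdc4 alone at 28149 and 40318. Sums rose for myofibre (44.6 to 45.1 against 191 to 234) and haematopoietic cells (25.9 to 37.0 against 59.7 to 66.4). The myofibre rise lay mostly in Acta1 (means of 7.39 against 113) and Tnnt3 (10.9 against 59.4), while Myh4 and Pvalb, both under 1 FPKM, fell. Among fibro-adipogenic markers Dpt fell from a mean of 465 to 5.71 FPKM, while Pdgfra, Ly6a, Dcn and Lum rose. The part of other cells in the falls of SR factors was not tested.

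Against PFA-perfused cells, the injury-activated cells had less of most members and more Srsf3; fixation, RNA kit, perfusion and genotype differed along with injury. Srsf6 fell by 3.15 ± 0.23 (limma adjusted p = 3.2e-06), from 242 ± 32.0 to 26.3 ± 0.238 FPKM, and Srsf4 by 2.75 ± 0.26. Srsf2, Srsf9, Srsf1, Srsf11 and Srsf5 fell by 1.90 ± 0.33, 1.88 ± 0.19, 1.39 ± 0.24, 1.19 ± 0.21 and 0.86 ± 0.27 on the log2 scale. Srsf3 rose by 1.25 ± 0.24 (adjusted p = 0.00122). These 7 falls and 1 rise stood beside 47.3% of genes called lower and 26.1% higher, with a member median of -1.29 and a median over all genes of -0.48. After trimmed mean scaling Srsf11 (-0.40) and Srsf5 (-0.06) were not called and Srsf10 (1.41) and Srsf7 (1.11) were called higher, giving 5 falls and 3 rises where 33.1% of genes were called lower and 39.7% higher. The median of the members was then -0.50 and that of all genes 0.11. Srsf10 lay just outside the threshold without scaling (0.64 ± 0.26, adjusted p = 0.0525), and it was called without either PBS-perfused library (adjusted p = 0.0221 and 0.0224). Srsf7 was at 0.32 ± 0.36, and at -0.09 after quantile normalization. The call of Srsf5 was lost when either injury-activated library was omitted (-0.92 and -0.79) and without PFA-perfused replicate 1 (-0.61).

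Against PBS-perfused cells, 8 members were lower in injury-activated cells and 1 was higher, beside 38.8% of genes called lower and 34.4% higher. Srsf6 fell by 3.76 ± 0.23 (limma adjusted p = 1.44e-06) and Srsf4 by 3.31 ± 0.26, followed by Srsf2 (-2.56 ± 0.33), Srsf5 (-1.90 ± 0.27), Srsf9 (-1.79 ± 0.19), Srsf11 (-1.41 ± 0.21), Srsf1 (-1.02 ± 0.24) and Srsf7 (-0.94 ± 0.36). Srsf3 rose by 0.81 ± 0.24. Srsf10 was not called (-0.44 ± 0.26), and was called lower without PBS-perfused replicate 2 (-0.76), after quantile normalization (-0.62) and with Rn45s and Malat1 removed (-0.62). The member median was -1.60 and that of all genes -0.11, and trimmed mean scaling left the same counts of 8 and 1, with 37% of genes called lower and 38.1% higher. The call of Srsf3 was lost after quantile normalization (0.51), without PBS-perfused replicate 1 (0.63) and when either injury-activated library was omitted (0.74 and 0.89), and that of Srsf7 in each of those 3 omissions and without PBS-perfused replicate 2 or either PFA-perfused library (adjusted p between 0.0523 and 0.161). Both comparisons of injury-activated with perfused cells also differ in perfusion and genotype, and the one with PFA-perfused cells in fixation and RNA kit as well, which cannot be told apart from injury. Each group enters 3 of the 6 comparisons, so the comparisons are not independent of each other.

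The kinases and the import receptor that act on SR proteins went in both directions. Of 10 listed genes 9 were tested, since Srpk3 stayed under 1 FPKM in most libraries. In PBS-perfused against PFA-perfused cells 1 rose and 2 fell, in unperfused against PFA-perfused cells 2 rose and 1 fell, and in injury-activated against unperfused cells 2 rose and 5 fell, with medians of 0.20, 0.23 and -0.84. Beside these counts, 17.8% of all genes were called higher and 46.2% lower in the first of these comparisons, 17.4 and 56.3% in the second and 40.8 and 29.3% in the third. Trimmed mean scaling gave counts of 5 and 2, 8 and 1, and 2 and 6, with medians of 0.76, 1.41 and -1.19, where 28.9 and 25.6%, 36 and 31.9%, and 36.2 and 36.8% of all genes were called. Dyrk1a, a kinase that also phosphorylates splicing factors, was at 7.91 and 3.83 FPKM after PFA perfusion, 18.5 and 19.7 after PBS perfusion, 156 and 164 in unperfused and 15.1 and 14.5 in injury-activated libraries. Like Srsf2, it was highest in both unperfused libraries. Clk1, the kinase of nuclear speckles, stood at 149 and 131, 158 and 189, 199 and 283, and 25.4 and 20.4 FPKM, and fell by 3.33 ± 0.26 in injury-activated against unperfused cells (-3.74 after trimmed mean scaling). Clk2 was highest in fixed cells, at 12.2 and 14.9 FPKM, and fell by 1.62 ± 0.20 in PBS-perfused and 2.07 ± 0.20 in unperfused cells against them (-1.04 and -1.05 after trimmed mean scaling). Srpk2 was at 26.3 and 26.8 FPKM in PFA-perfused and 9.60 and 10.8 in PBS-perfused libraries, a called fall. Tnpo3, the import receptor, rose by 2.00 ± 0.23 in injury-activated against unperfused cells (1.63 after scaling), and Srpk1 by 1.63 ± 0.21 in injury-activated against PBS-perfused cells.

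SR-related proteins, which carry such tails without being classical members, numbered 24, of which 23 were tested and Srsf12 was not. In PBS-perfused against PFA-perfused cells 3 rose and 9 fell (9 and 2 after trimmed mean scaling), in unperfused against PFA-perfused cells 5 rose and 9 fell (15 and 2), and in injury-activated against unperfused cells 2 rose and 13 fell (2 and 17). The shares of all genes called higher and lower were 17.8 and 46.2%, 17.4 and 56.3%, and 40.8 and 29.3% (28.9 and 25.6%, 36 and 31.9%, and 36.2 and 36.8% after scaling). Medians were -0.25, -0.22 and -0.65, and 0.37, 0.98 and -1.04 after trimmed mean scaling. Arglu1, a coactivator of splicing, was at 6.15 and 8.20 FPKM after PFA perfusion, 2.55 and 2.90 after PBS perfusion, 195 and 220 in unperfused and 19.2 and 20.8 in injury-activated libraries (219.9 in unperfused replicate 2). It rose by 5.81 ± 0.21 from PBS-perfused to unperfused cells (6.37 after trimmed mean scaling). Srek1 rose by 2.45 ± 0.19 in the same comparison (3.01 after scaling) and fell by 2.57 ± 0.19 after injury. Tra2b, which binds exonic enhancers beside SR proteins, rose by 1.53 ± 0.24 in PBS-perfused against PFA-perfused cells, at 91.3 and 74.1 against 31.8 and 24.4 FPKM. Son, a scaffold of nuclear speckles, fell by 2.99 ± 0.22 in injury-activated against PFA-perfused cells (-2.21 after scaling).

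Partners at the splice sites include proteins of the U1 snRNP, U2AF and the U2 snRNP. Of 10 listed genes, all tested, 4 rose and 2 fell in PBS-perfused against PFA-perfused cells, 1 rose and 8 fell in unperfused against PFA-perfused cells, and 5 rose and 2 fell in injury-activated against unperfused cells, with medians of 0.27, -0.90 and 0.59. Over all genes the shares called higher and lower were 17.8 and 46.2%, 17.4 and 56.3%, and 40.8 and 29.3%, the last close to the split of this list. After trimmed mean scaling the counts were 6 and 0, 4 and 1, and 4 and 3, with medians of 0.90, 0.28 and 0.20, beside 28.9 and 25.6%, 36 and 31.9%, and 36.2 and 36.8% of all genes. Snrnp70, the U1 protein that contacts SR tails, was at 126 and 104 FPKM after PFA perfusion, 63.5 and 82.9 after PBS perfusion, 24.3 and 22.0 in unperfused and 11.5 and 13.4 in injury-activated libraries. U2af1, the small subunit of U2AF, rose by 1.07 ± 0.25 in PBS-perfused against PFA-perfused cells and fell by 2.43 ± 0.25 in unperfused against PBS-perfused cells. Sf3a1 rose by 2.21 ± 0.25 in injury-activated against unperfused cells (1.82 after scaling).

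Nonsense-mediated decay, which removes the poison exon isoforms of SR genes, was followed through 15 genes, all tested. In PBS-perfused against PFA-perfused cells 3 rose and 4 fell, in unperfused against PFA-perfused cells 3 rose and 8 fell, and in injury-activated against unperfused cells 5 rose and 8 fell, with medians of 0.04, -0.75 and -0.47 (0.60, 0.26 and -0.85 after trimmed mean scaling, with counts of 7 and 3, 7 and 2, and 5 and 9). All genes were called higher and lower at 17.8 and 46.2%, 17.4 and 56.3%, and 40.8 and 29.3% (28.9 and 25.6%, 36 and 31.9%, and 36.2 and 36.8% after scaling), and in the second comparison the decay genes lay near those shares. Upf1, the helicase of the pathway, was at 17.0 and 20.1 FPKM after PFA perfusion, 7.03 and 23.6 after PBS perfusion, 95.5 and 82.0 in unperfused and 14.8 and 16.1 in injury-activated libraries, and fell by 2.45 ± 0.43 after injury. Upf3b fell by 1.55 ± 0.21 in PBS-perfused and by 2.19 ± 0.21 in unperfused cells against PFA-perfused cells. Of 8 mRNA export genes, 0 rose and 2 fell in PBS-perfused against PFA-perfused cells, 2 rose and 3 fell in unperfused against PFA-perfused cells, and 4 rose and 0 fell in injury-activated against unperfused cells, beside the same shares of all genes. Both counts of 0 by limma were also 0 at an unadjusted p under 0.05. Thoc5 rose by 3.08 ± 0.20 and Ddx39b by 1.82 ± 0.24 after injury, the latter from 124 and 125 to 410.1 and 474 FPKM. The export counts after trimmed mean scaling were 5 and 1, 6 and 2, and 4 and 1.

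The remaining 3 comparisons gave these counts for the same lists. In unperfused against PBS-perfused cells, 2 kinase and import genes rose and 0 fell (6 and 0 after trimmed mean scaling), as did 5 and 4 SR-related genes (10 and 2), 0 and 8 splice site partners (2 and 5), 3 and 5 decay genes (6 and 4) and 1 and 3 export genes (4 and 1), where 13.1% of all genes were called higher and 36.5% lower (24.5 and 22.9%). The counts of 0 by limma were 0 for kinase and import genes and 1 for splice site partners at an unadjusted p under 0.05. In injury-activated against PFA-perfused cells, 3 kinase and import genes rose and 4 fell (5 and 2), with 5 and 14 SR-related genes (7 and 8), 2 and 2 splice site partners (5 and 2), 5 and 8 decay genes (6 and 4) and 5 and 1 export genes (6 and 0), beside 26.1% of all genes higher and 47.3% lower (39.7 and 33.1%). Against PBS-perfused cells the counts were 2 and 3 (2 and 3), 3 and 13 (5 and 13), 2 and 5 (2 and 5), 4 and 7 (6 and 7) and 4 and 1 (4 and 1), taking the lists in that order, beside 34.4% of all genes higher and 38.8% lower (38.1 and 37%). The median of SR-related genes in injury-activated against PFA-perfused cells went from -0.71 to 0.08.

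**Figure D4:**
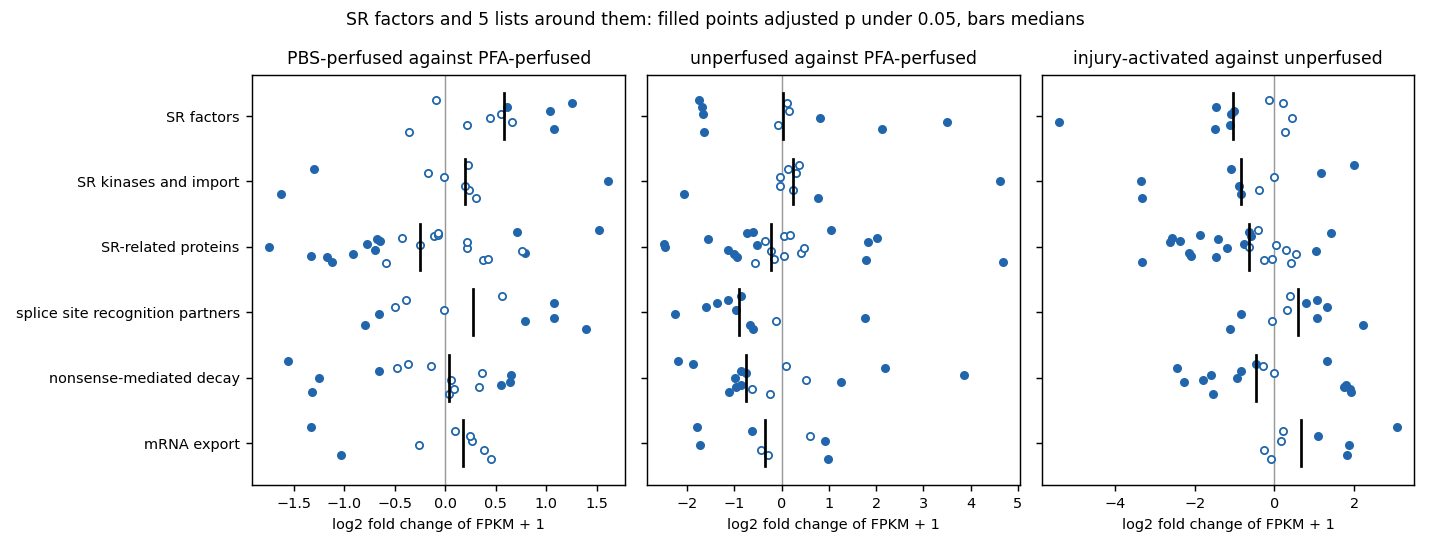
Log2 fold change of FPKM + 1 of each tested gene in the SR factors and 5 lists around them for 3 comparisons (filled points: limma adjusted p under 0.05; open points: not called; bars: list medians); the horizontal scale differs between panels. After injury the SR factors centre at -1.05 and the export genes at 0.65.

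The mean profile of the 10 members, each centred on its own mean log2(FPKM + 1), was closest to those of Smad3, Ppan, Ccdc117, Naa30 and Mir6992 among the 5662 other genes whose mean reached 10 FPKM. Pearson's r over the 8 libraries was 0.993 for Smad3, 0.992 for Ppan, 0.991 for Ccdc117 and Naa30 and 0.989 for Mir6992. The 8 points come in 4 pairs of replicates, so the likeness is a description that rests largely on 4 group levels. Smad3 was at 14.5 and 9.30 FPKM after PFA perfusion, 23.0 and 26.1 after PBS perfusion, 14.9 and 13.0 in unperfused and 2.78 and 2.44 in injury-activated libraries. Like the member mean, all 5 were highest in PBS-perfused and lowest in injury-activated libraries. Among the members themselves only Srsf4, Srsf5, Srsf6 and Srsf11 had both their highest and their lowest group mean there. Srsf3 ran opposite to Srsf9 (r = -0.895) and Srsf6 (r = -0.869), so the mean profile does not describe each member.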

How the data were processed

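RNA was sequenced from 8 libraries of sorted muscle stem cells in 4 groups of 2, grouped by sample title. The authors deposited 1 table of 24328 gene symbols. Its header names no unit, and the deposited values were taken as FPKM because they hold decimals, sum to totals that differ between libraries (461454 to 582336) and come from software that writes FPKM. Per the submitters' processing notes, STAR 2.5.3a, StringTie 1.3.3 and R 3.4.1 were used with mm9, without roles or settings. Without counts, the depth and counting error of each value are unknown.

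The scale of analysis was log2(FPKM + 1), unscaled between libraries, for the 12515 genes that reached 1 FPKM in 2 or more libraries. All 8 libraries entered 1 model in limma 3.58.1 (R 4.3.3) with a variance trend and without covariates. The 6 differences between groups were tested two-sided with Benjamini-Hochberg adjustment over all genes, called under 0.05. The script was tested on simulated data. Promoter windows came from RefSeq on GRCm38.p6 and overlapping genes from GENCODE M21 (GRCm38), another build than that of the reads, so only names, overlap lengths and promoter sequences were taken. Protein sequences were not used here, and some listed genes are not reported here.

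Named genes were the 10 members, up to 3 called genes per list and comparison by size of change (part of these is printed), and the 5 genes most like the member mean. The values of overlapping genes and of Srsf12 and Srpk3, and the motifs, were chosen after values had been seen. The members and lists were chosen with earlier results of these data known. Alternatives were the replicate number as a block, a fit of the 2 groups only, no filter, a filter of 5 FPKM, a pseudocount of 0.1, quantile normalization, trimmed mean scaling (trimming 0.3 of ratios and 0.05 of levels), rescaling without Rn45s and Malat1, and leaving out each library. Averaging both injury-activated libraries (r = 0.997 across genes, against 0.972 to 0.981 in the other groups) was chosen after seeing the data. Leaving out a library leaves 1 in its group, whose spread is then taken from the other groups.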

Additional observations from a re-analysis of the deposited data

How the results depend on the processing

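Trimmed mean scaling changed the counts most. With it 9 members were called higher in PBS-perfused against PFA-perfused cells (4 without), 6 in unperfused against PFA-perfused cells (3 without) and 3 in injury-activated against PFA-perfused cells (1 without). The shares of all genes called higher also rose, from 17.8 to 28.9%, 17.4 to 36% and 26.1 to 39.7% in that order. No such shares were counted for the other settings below, so changes common to all genes cannot be told apart there. The count of members higher in injury-activated against PFA-perfused cells was 2 after quantile normalization, in the fit of the 2 groups only and with the replicate number as a block. The count of members higher in injury-activated against PBS-perfused cells, 1, was 0 after quantile normalization and with the injury-activated libraries averaged. With each library left out in turn, the members called higher ranged from 0 to 4 in PBS-perfused against PFA-perfused cells, 2 to 3 in unperfused against PFA-perfused, 2 to 2 in unperfused against PBS-perfused, 0 to 1 in injury-activated against unperfused, 1 to 2 against PFA-perfused and 0 to 1 against PBS-perfused. The members called lower ranged from 0 to 0, 4 to 4, 4 to 6, 5 to 6, 6 to 7 and 7 to 8 in the same order.

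Signs changed for members that were not called. With trimmed mean scaling these were Srsf1 (0.27) and Srsf9 (0.52, then called) in PBS-perfused against PFA-perfused cells, Srsf11 in unperfused against PFA-perfused (1.13, then called) and PBS-perfused cells (0.28), and Srsf1 (-0.14) and Srsf7 (-0.20) in injury-activated against unperfused cells. With quantile normalization they were Srsf9 (0.20) in PBS-perfused against PFA-perfused, Srsf1 (-0.18) and Srsf7 (-0.23) in injury-activated against unperfused, and Srsf7 (-0.0919) in injury-activated against PFA-perfused cells. With Rn45s and Malat1 removed Srsf7 was at -0.0253 in injury-activated against unperfused cells. Leaving out libraries gave ranges of -0.0932 to 0.40 for Srsf5 and -0.44 to 0.67 for Srsf7 in unperfused against PFA-perfused, and -0.35 to 0.76 for Srsf7 in injury-activated against unperfused cells. The cause of these changes was not tested. The filter of 5 FPKM and the pseudocount of 0.1 kept all 60 member results on their side of the threshold. Without a filter the 2 calls of Srsf7 against PBS-perfused cells were lost (limma adjusted p = 0.0772 for unperfused and 0.0977 for injury-activated cells). In the fit of the 2 groups only, Srsf6 in PBS-perfused against PFA-perfused cells and Srsf5 and Srsf7 in unperfused against PBS-perfused cells were lost (limma adjusted p = 0.0970, 0.0923 and 0.0605). With the injury-activated libraries averaged, 6 of 60 results lost their call.

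The replicate number as a block kept 59 of 60 and added the call of Srsf10 in injury-activated against PFA-perfused cells (0.64, limma adjusted p = 0.0338). Differences between replicates 1 and 2 correlated across genes between groups at -0.05 to 0.12, and the labels do not tie the numbers together, so the libraries share only a number. With 2 libraries per group and no counts, small differences at low FPKM, such as those of Srsf4 after injury, rest on values whose counting error is unknown.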
